A study of Mus musculus with 9 samples.

Results

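The phase II conjugation enzymes described here are 52 of the 22180 genes measured in these livers. They were chosen by name from the array's annotation, as every gene with a single-symbol probe set that begins with Ugt1, Ugt2 or Ugt3, Gst with a class letter and a number, Mgst, or Sult with a number. They comprise 10 UDP-glucuronosyltransferases, 21 glutathione S-transferases with the microsomal forms, and 21 sulfotransferases. Every Ugt1 probe set carried several symbols, so none of the 52 is a Ugt1 gene.

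The 9 arrays form 3 groups of 3: regular diet with vehicle (RD), high-fat diet with vehicle (HFD), and the high-fat diet plus 500 mg/kg of an extract of ginseng flower buds (GFB). Dosing was oral, once daily for 12 weeks, in C57BL/6 mice housed from 5 weeks of age, for which the strain field gives C56BL/6J. Livers were taken after an overnight fast, and no allele or transgene is named in the labels. Nothing in the labels states that the 9 arrays come from 9 mice, so p-values measure only the spread between these samples, which may be technical. Values are log2 expression after robust multi-array averaging, and array medians lay between 4.34 and 4.38. All 8 hepatocyte markers measured, such as Alb and Ttr, lay above the median of all gene means, 4.74, which serves here as the level below which signal is not told from background. In a whole-liver sample, fewer cells of a type and less RNA per cell cannot be told apart.

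Conjugation joins a water-soluble group to a lipophilic molecule so that it can leave the hepatocyte in bile or blood. UDP-glucuronosyltransferases sit in the endoplasmic reticulum and transfer a sugar, mostly glucuronic acid, to drugs, bilirubin, steroids and bile acids. Sulfotransferases of the cytosol transfer sulfate from the donor PAPS to phenols, steroids, thyroid hormones and bile acids, and glutathione S-transferases join glutathione to reactive electrophiles.

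Of the 52 genes, 31 lay above 4.74 in all 9 arrays, 19 in none of them and 2 in some. The 19 were Ugt2b37, Ugt2b38, Gsto2, Mgst2, Gstt4 and 14 sulfotransferases, among them Sult1e1, the estrogen sulfotransferase gene, Sult2b1, Sult3a1, Sult3a2 and all measured Sult2a genes except Sult2a5 and Sult2a8. Where both groups lie below that level, a difference is not told from background. Sult3a1 and Sult2a1 are known as female-predominant genes of mouse liver, and the labels do not state the sex of these mice. Sult3a1 ranged from 1.65 to 2.15 and Sult2a1 from 1.60 to 2.39 over the 9 arrays.

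Upstream sequences are shown for 3 of the 5 genes that rose on the high-fat diet, Ugt2b36, Sult1c2 and Sult1b1. No window is printed for Ugt3a2, or for Sult2a4, which lay below background. RefSeq promoter entries (GRCm38.p6) were found for 45 of the 52 genes, and the 250 bases before the start site are given 5′ to 3′ for Ugt2b36, Sult1c2 and the 2 start sites of Sult1b1. Capitals mark matches, on either strand, to 5 short motifs: TGANNNNGC (antioxidant response core), GCGTG (xenobiotic response core), AGGTCA (nuclear receptor half-site), GTTAAT (HNF1 half-site) and TTCNNNGAA (STAT5 palindrome).
Ugt2b36, chr5:87092556-87092805, minus strand: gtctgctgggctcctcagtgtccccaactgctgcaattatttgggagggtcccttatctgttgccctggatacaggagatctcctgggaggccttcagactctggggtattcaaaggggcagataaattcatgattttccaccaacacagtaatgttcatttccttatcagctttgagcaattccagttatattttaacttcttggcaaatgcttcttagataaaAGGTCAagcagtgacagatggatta
Sult1c2, chr17:53845959-53846208, minus strand: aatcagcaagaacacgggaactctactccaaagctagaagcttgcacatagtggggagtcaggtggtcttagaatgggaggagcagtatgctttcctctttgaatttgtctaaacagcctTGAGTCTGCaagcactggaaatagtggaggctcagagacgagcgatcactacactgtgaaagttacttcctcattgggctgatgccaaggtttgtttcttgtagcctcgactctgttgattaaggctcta
Sult1b1, chr5:87536223-87536472, minus strand: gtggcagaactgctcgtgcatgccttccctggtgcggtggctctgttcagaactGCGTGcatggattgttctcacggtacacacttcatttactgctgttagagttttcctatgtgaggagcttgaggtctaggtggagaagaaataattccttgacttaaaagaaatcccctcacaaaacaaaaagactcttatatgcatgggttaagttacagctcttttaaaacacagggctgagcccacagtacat
Sult1b1, chr5:87538196-87538445, minus strand: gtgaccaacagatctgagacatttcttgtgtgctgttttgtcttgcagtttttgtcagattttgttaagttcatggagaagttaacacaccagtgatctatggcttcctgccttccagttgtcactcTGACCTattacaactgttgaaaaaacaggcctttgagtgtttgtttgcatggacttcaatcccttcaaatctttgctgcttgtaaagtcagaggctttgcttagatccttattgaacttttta

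The upstream window of Ugt2b36 held an AGGTCA match that begins 25 bases before the start site. Sult1c2 held a TGANNNNGC match that begins 130 bases before it. The start sites of Sult1b1 held a GCGTG match at 196 bases and, at the other site, an AGGTCA match on the opposite strand at 123 bases. The Sult2a4 window, not printed, held a GTTAAT match at 107 bases. The letters AGGTCA also began 22 bases before the start of Ugt2b5, 25 before that of Ugt2b38 and 39 before that of Ugt2b37. Such letters are common. TGANNNNGC lay in 35.2% of all 32851 promoter windows of this length and in 30.4% of the 56 windows of conjugation genes, GCGTG in 28.2% and 14.3%, and AGGTCA in 14.0% and 16.1%. GTTAAT lay in 6.43% of all windows and in 10 of the 56 (17.9%), and TTCNNNGAA in 7.02% and 3.57%. Many of the 56 windows belong to near relatives and are not independent, each of the 4 printed windows held 1 match, so none overlapped, and a match describes letters, not binding.

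The first comparison, of HFD with RD arrays, concerns the diet without extract. Of the 52 conjugation genes, 5 rose (9.62%) and none fell, where 0.821% of all genes tested rose and 0.518% fell. The 5 were the glycosyltransferase genes Ugt3a2 and Ugt2b36 and the sulfotransferase genes Sult1b1, Sult1c2 and Sult2a4. At an unadjusted p under 0.05 in limma, 21 of the 52 were higher, against 6.89% of all genes, and 2 were lower, against 6.39%. All 3 high-fat diet arrays lay above all 3 regular-diet arrays for 18 of the 52 genes (34.6%), against 7.93% of all genes tested, and below them for 3 (5.77%), against 7.86%. The median difference over the 52 was 0.12 on the log2 scale, beside 6.79e-05 over all genes. It was 0.059 without HFD replicate 2, and 0.27 over the 32 genes with a mean above background.

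**Figure D1:**
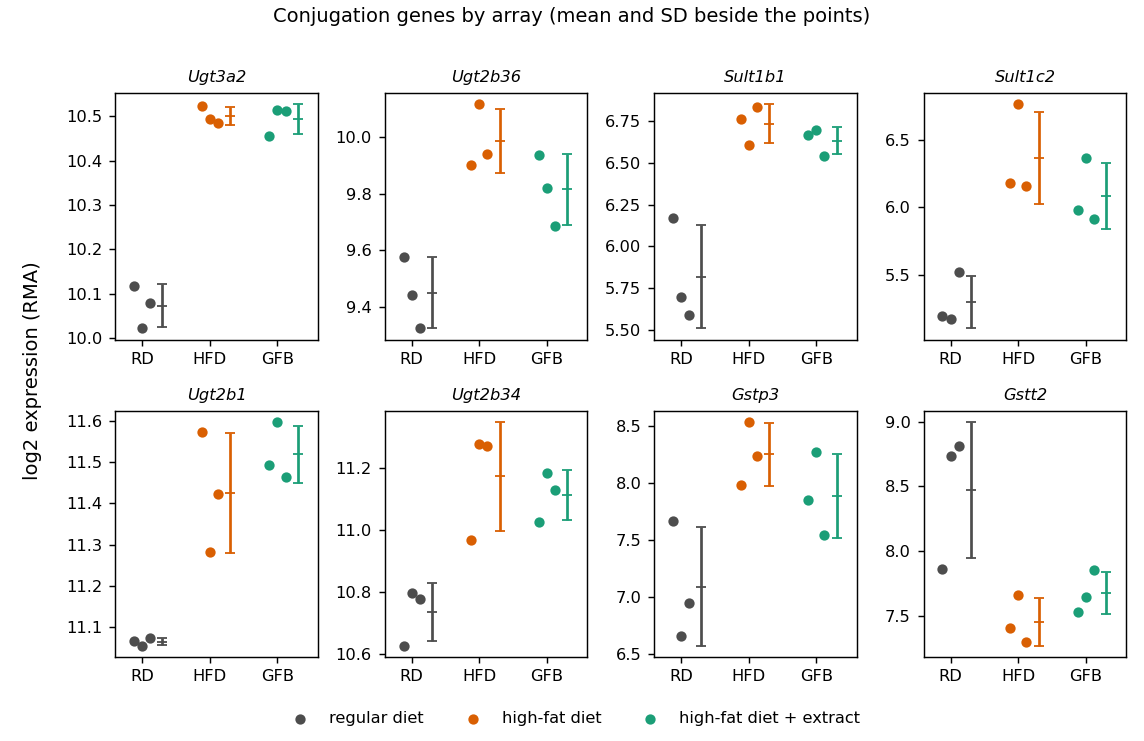
Log2 expression (RMA) of 8 conjugation genes on the y axis, by group on the x axis, with 1 point per array and the mean and SD of 3 arrays beside the points. Each y axis has its own range. Ugt3a2 lies between 10.02 and 10.12 on the regular diet and between 10.46 and 10.52 in the other 6 arrays.

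Ugt3a2 encodes a glycosyltransferase of the UGT3 family, which is known to use sugars other than glucuronic acid. It stood at 10.12, 10.02 and 10.08 on the regular diet, at 10.52, 10.49 and 10.49 on the high-fat diet and at 10.46, 10.51 and 10.51 with extract. The 6 arrays of high-fat-fed mice lay above the 3 of the regular diet with a gap wider than the range within any group. It rose 1.35-fold on the diet (0.43 ± 0.06, mean difference ± SE, n = 3 arrays per group, limma adjusted p = 0.0166). Its neighbour in RefSeq gene order, Ugt3a1, a related gene whose product is known to transfer N-acetylglucosamine, stood at 8.78, 8.49 and 8.75, then 8.94, 8.94 and 9.06. Its groups did not overlap, and its difference of 0.31 ± 0.10 did not pass (limma adjusted p = 0.212).

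The Ugt2b genes encode the enzymes that glucuronidate steroids, bile acids and many drugs, and they lie next to one another in RefSeq gene order. Ugt2b36 stood at 9.58, 9.44 and 9.33 on the regular diet, at 9.90, 10.11 and 9.94 on the high-fat diet and at 9.93, 9.82 and 9.69 with extract. It rose 1.45-fold on the diet (0.53 ± 0.10, limma adjusted p = 0.0374), and no regular-diet array reached the lowest array of either other group. Ugt2b34 stood at 10.63, 10.80 and 10.78 against 10.97, 11.28 and 11.27, which is 0.44 ± 0.10 (limma adjusted p = 0.0775). Ugt2b1 stood at 11.07, 11.06 and 11.07 against 11.57, 11.28 and 11.42, which is 0.36 ± 0.08 (limma adjusted p = 0.0846). Neither passed, although neither had overlapping groups. Ugt2b35 was 0.44 ± 0.14 higher (limma adjusted p = 0.186), also without overlap.

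Ugt2b5, within the same cluster, stood apart in sign. It lay at 9.74, 9.88 and 9.97 on the regular diet and at 9.71, 9.59 and 9.74 on the high-fat diet, with all 3 high-fat diet arrays lower and a difference of -0.19 ± 0.09 (limma adjusted p = 0.426). Ugt2a3 differed by 0.12 ± 0.11 (limma adjusted p = 0.715). Over the 10 glycosyltransferase genes the median difference was 0.39 (range -0.19 to 0.87), 9 were higher and 2 rose. Per array, the median of the 10 genes relative to the regular-diet mean was 0.36, 0.24 and 0.40 on the high-fat diet and -0.06, 0.01 and 0.06 on the regular diet. The upper end of the range was Ugt2b37, below background in every array, at 4.42, 3.25 and 4.56 on the high-fat diet against 3.09, 3.20 and 3.33. The Ugt2b genes are close relatives, so the assignment of signal to 1 of them is uncertain.

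Among sulfotransferase genes, Sult1b1, whose product sulfates phenols and thyroid hormones, stood at 6.17, 5.70 and 5.59 on the regular diet, at 6.77, 6.61 and 6.83 on the high-fat diet and at 6.67, 6.70 and 6.54 with extract. It rose 1.89-fold on the diet (0.92 ± 0.14, limma adjusted p = 0.0200), and RD replicate 1 was the regular-diet array nearest to the others. Sult1c2, a phenol sulfotransferase gene, stood at 5.20, 5.18 and 5.52, then 6.18, 6.76 and 6.16, and 5.98, 6.36 and 5.91 with extract. It rose 2.10-fold (1.07 ± 0.18, limma adjusted p = 0.0307), the largest of the 5 rises, and HFD replicate 2 was its highest array. Sult2a4 also passed (0.51 ± 0.10, limma adjusted p = 0.0457), but lay between 3.18 and 3.93 in all 9 arrays, below background, so its change is not told from background.

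The other sulfotransferase genes above background did not pass. Sult1a1, the main phenol sulfotransferase gene of liver, was at -0.26 ± 0.14 (limma adjusted p = 0.489) and Sult1d1, which acts on catecholamines, at -0.14 ± 0.12 (limma adjusted p = 0.704). Sult2a8, a bile acid sulfotransferase gene of mouse liver, lay at 11.02, 11.04 and 11.00 against 11.26, 11.09 and 11.22. Its groups did not overlap and its difference of 0.17 ± 0.07 did not pass (limma adjusted p = 0.376). Sult5a1 crossed the background level in 3 of 9 arrays, at 5.79, 4.51 and 5.28 on the high-fat diet against 4.31, 4.45 and 4.44 (0.79 ± 0.32, limma adjusted p = 0.316). Over the 21 sulfotransferase genes the median difference was -0.09, and 9 were higher. That median was 0.09 without RD replicate 1 and 0.01 without HFD replicate 1, and 15 of the 21 genes had a mean below background. Over the 6 sulfotransferase genes with a mean above background the median was 0.48, 4 were higher and 2 were lower. The groups of the 4 did not overlap, as for 1310 of all 11090 genes with a mean above background. Among the 4, Sult5a1 was separated only by 4.51 against 4.45, both below the background level.

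**Figure D2:**
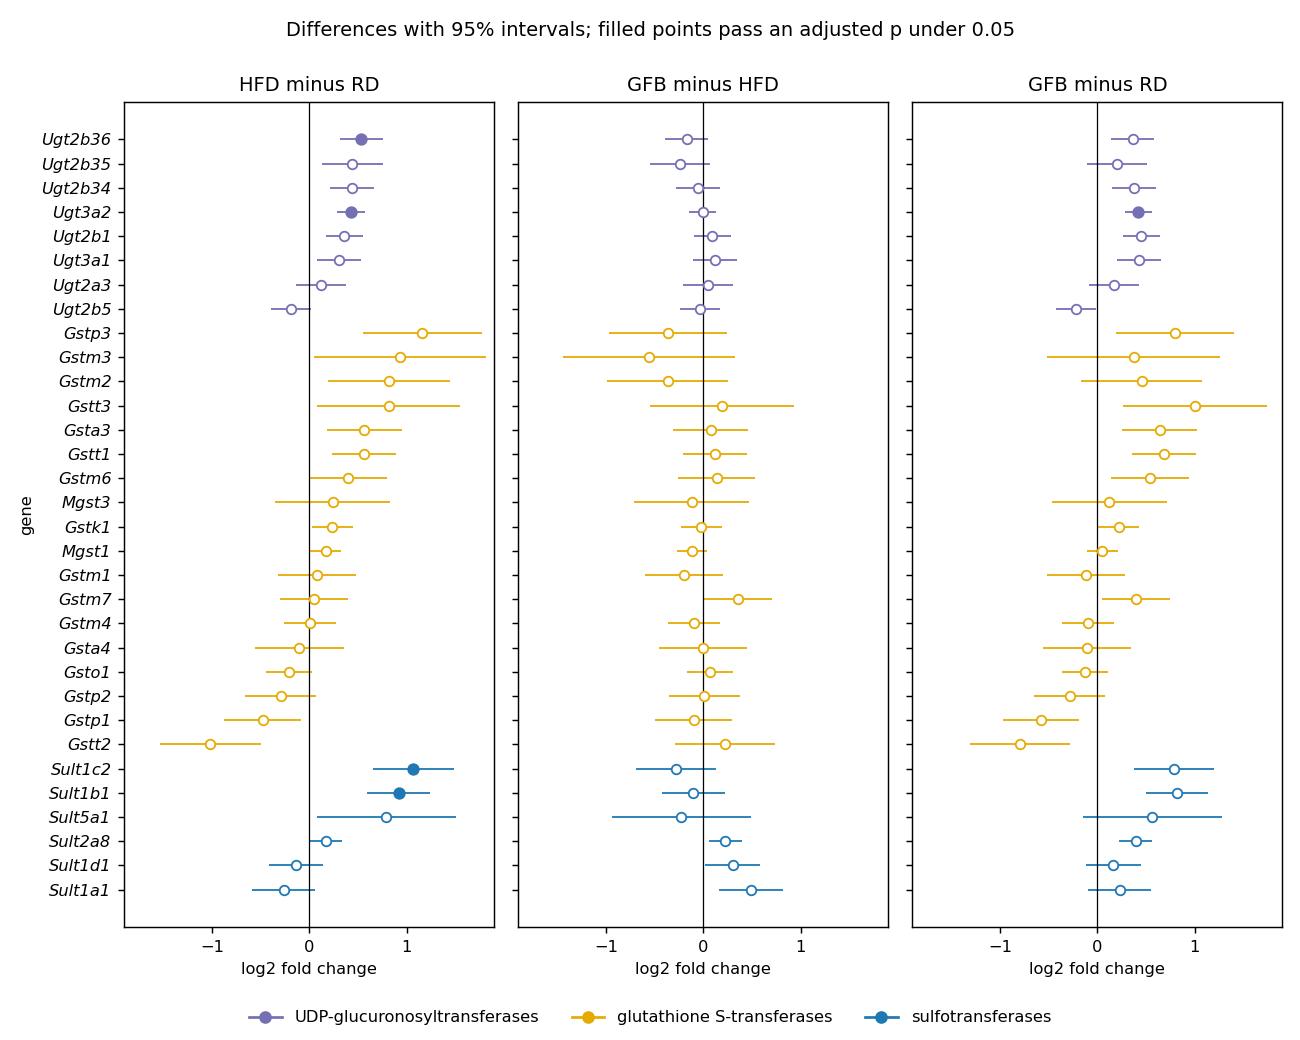
Differences in log2 expression on the x axis for the 32 conjugation genes on the y axis whose mean over 9 arrays is above the median gene mean, in 3 comparisons. Points are limma estimates, bars are unadjusted 95% intervals, filled points pass an adjusted p under 0.05 and colours mark the family. Filled points stand in the left panel for Ugt2b36, Ugt3a2, Sult1c2 and Sult1b1, in the right panel for Ugt3a2 and in the middle panel for no gene.

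None of the 21 glutathione S-transferase genes passed, and 11 had an unadjusted p under 0.05 in limma, 9 of them higher and 2 lower, beside 1529 higher and 1417 lower of the 22180 genes tested. Close relatives in this family differed in sign. In RefSeq gene order Gstt3, Gstt1, Gstt4 and Gstt2 of the theta class follow one another. Gstt2 stood at 7.86, 8.74 and 8.81 on the regular diet against 7.41, 7.66 and 7.30 (-1.01 ± 0.23, limma adjusted p = 0.0739), with RD replicate 1 close to the high-fat diet arrays. Gstt1 stood at 9.43, 9.35 and 9.23 against 9.58, 10.24 and 9.87 (0.56 ± 0.15, limma adjusted p = 0.119). In both genes the groups did not overlap, in opposite directions. Gstt3 was 0.81 ± 0.33 higher with overlapping groups (limma adjusted p = 0.319), and Gstt4 was below background.

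The neighbouring pi-class genes also had opposite signs. Gstp3 stood at 7.66, 6.66 and 6.95 against 7.99, 8.54 and 8.23, the largest difference among the 52 genes (1.16 ± 0.27, limma adjusted p = 0.0799). Gstp1, known as a male-predominant transferase gene of mouse liver, stood at 11.56, 11.42 and 11.29 against 11.34, 10.76 and 10.74 (-0.48 ± 0.17, limma adjusted p = 0.266). Gstp2 stood at -0.30 ± 0.16 (limma adjusted p = 0.490), and a probe set shared by Gstp1 and Gstp2 exists, so these near-identical genes are not cleanly separated. Whether the differences of neighbours are unequal was not tested.

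The mu-class genes Gstm2 (0.82 ± 0.28, limma adjusted p = 0.226) and Gstm3 (0.93 ± 0.39, limma adjusted p = 0.349), the alpha-class gene Gsta3 (0.57 ± 0.17, limma adjusted p = 0.173), the kappa-class gene Gstk1 (0.24 ± 0.09, limma adjusted p = 0.304) and the microsomal gene Mgst1 (0.17 ± 0.07, limma adjusted p = 0.348) were higher without passing. All 6 measured Gstm genes had a positive difference, from 0.0040 for Gstm4 to 0.93 for Gstm3. The high-fat diet arrays were unequal in this family. Of the 18 transferase genes with a mean above background, HFD replicate 2 was the highest of its group in 14 and HFD replicate 1 the lowest in 14. Gstm3, for example, read 5.16, 6.84 and 6.09 on the high-fat diet against 5.52, 5.01 and 4.78. The median difference of the 18 was 0.20, and it was 0.11 without HFD replicate 2 and 0.28 without HFD replicate 1.

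**Figure D3:**
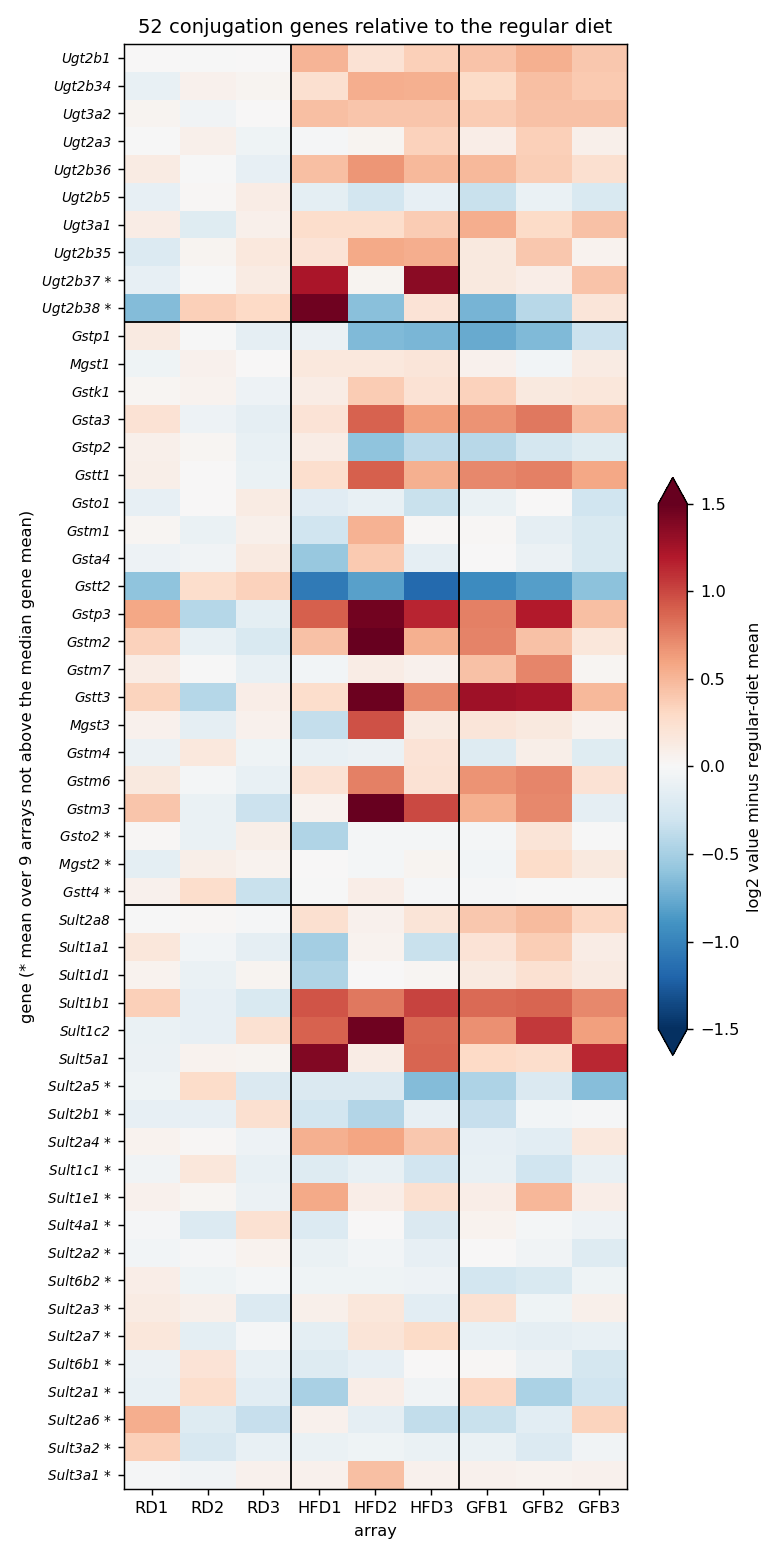
Log2 value of each of the 52 conjugation genes minus its regular-diet mean, by array (x axis) and gene (y axis), with the colour scale ending at -1.5 and 1.5 and horizontal lines between glycosyltransferases, glutathione S-transferases and sulfotransferases. An asterisk marks genes whose mean is not above 4.74. HFD replicate 2 holds the deepest red among the Gstm genes, with Gstm3 at 6.84 against a regular-diet mean of 5.10.

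The calls on the high-fat diet rest on all the arrays together. The count of 5 was 0 without RD replicate 2, RD replicate 3 or HFD replicate 3, and 1 without HFD replicate 1 (Ugt2b34) or HFD replicate 2 (Ugt2b37). It was 2 without GFB replicate 1, 3 without GFB replicate 2, and 5 without GFB replicate 3. Without RD replicate 1 it was also 5, but these were Ugt3a2, Ugt2b36, Sult1b1 and Gstp3, higher, and Gstt2, lower, with Sult1c2 and Sult2a4 no longer called. It was 0 in a fit of the 6 RD and HFD arrays by themselves. The differences of the 5 kept their sign, but their size moved more in some genes than in others. With 1 array left out Sult1c2 ran from 0.87 to 1.18. Of the genes not called in the main fit, Gstp3 ran from 0.95 to 1.45 and Gstt2 from -1.32 to -0.84. Without any 1 array Ugt3a2 stayed between 0.40 and 0.45 (limma adjusted p from 0.0211 to 0.0686) and Sult1b1 between 0.80 and 1.09 (limma adjusted p from 0.00420 to 0.0861).

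Among genes beside the transferases, those of co-substrate supply are read with them. Of the 9 measured genes of UDP-glucuronate supply and release, Slc35d1, which carries UDP-glucuronic acid into the endoplasmic reticulum, rose on the high-fat diet and none fell. It stood at 8.55, 8.56 and 8.64 against 9.01, 9.12 and 9.16 (0.51 ± 0.08, limma adjusted p = 0.0244). Ugdh, which makes UDP-glucuronic acid, stood at 9.26, 9.36 and 9.44 against 9.63, 10.28 and 10.01 (0.62 ± 0.15, limma adjusted p = 0.102), again without overlap. Gys2, on the same list, went the other way with overlapping groups (-0.65 ± 0.29, limma adjusted p = 0.366). Of the 9 genes 6 were higher and 3 lower, with a median difference of 0.08. Of the 12 measured genes of sulfate donor supply and sulfate release none passed, and Papss1, a PAPS synthase gene, stood at 0.37 ± 0.08 (limma adjusted p = 0.0684).

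Of the 22 measured genes of glutathione synthesis and turnover, Cth, which releases cysteine for glutathione, fell and none rose. Cth stood at 11.29, 11.84 and 11.96 against 10.22, 10.43 and 10.47 (-1.33 ± 0.18, limma adjusted p = 0.0132). Cbs, the step before it, and Oplah, which recycles glutamate from oxoproline, stood at -0.73 ± 0.16 (limma adjusted p = 0.0682) and -0.47 ± 0.11 (limma adjusted p = 0.0732). Gclc, the rate-limiting gene of glutathione synthesis, was higher in every high-fat diet array than in every regular-diet array, and did not pass (0.77 ± 0.22, limma adjusted p = 0.148). RD replicate 1, at 9.80, lay closest to the high-fat diet arrays at 9.94, 10.38 and 9.87.

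Of the 16 measured transporters of conjugates, Abcc3, which exports glucuronides to blood, and Slc22a7, an organic anion transporter gene, rose and none fell. Abcc3 stood at 9.20, 9.40 and 9.47 against 9.91, 10.31 and 10.11 (0.75 ± 0.12, limma adjusted p = 0.0213). Slc22a7 rose by 2.17 ± 0.41 (limma adjusted p = 0.0394), from 5.68, 5.02 and 3.88 to 7.48, 6.51 and 7.10, and its lowest regular-diet array was below background. Abcc2, which exports conjugates to bile and was named after its value was seen, stood at 0.16 ± 0.12 (limma adjusted p = 0.630).

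Of the 22 measured genes of methyl, acetyl and amino acid conjugation with other detoxifying enzymes, 3 rose and 1 fell. Of all genes tested, 0.821% rose and 0.518% fell. Among the 22, 14 were higher and 8 lower. Tpmt, a thiol methyltransferase gene, rose by 0.65 ± 0.09 (limma adjusted p = 0.0145), from 8.18, 8.36 and 8.36 to 8.79, 8.97 and 9.09. Acsm1, which activates carboxylic acids for glycine conjugation, rose by 0.47 ± 0.09 (limma adjusted p = 0.0408), and Aox3, an aldehyde oxidase gene, by 1.03 ± 0.18 (limma adjusted p = 0.0313). Ephx2, the soluble epoxide hydrolase gene, fell (-0.47 ± 0.08, limma adjusted p = 0.0266). As3mt (-0.63 ± 0.14, limma adjusted p = 0.0612) and Nnmt (-0.81 ± 0.20, limma adjusted p = 0.103), on the same list, were lower without overlap and did not pass. Both were named after their values were seen.

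**Figure D4:**
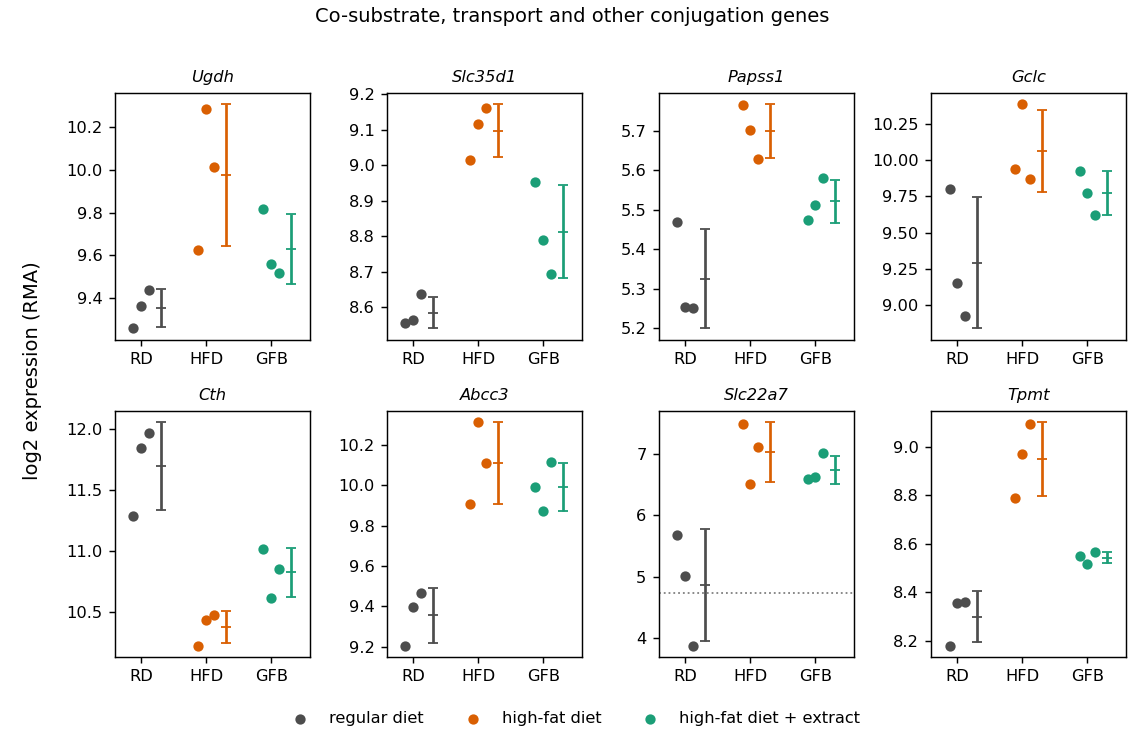
Log2 expression (RMA) of 8 genes of co-substrate supply, transport and methyl conjugation on the y axis, by group on the x axis, with 1 point per array and the mean and SD of 3 arrays beside the points. Each y axis has its own range, and the dotted line in the Slc22a7 panel is the median gene mean of 4.74. Slc35d1, Cth, Abcc3, Slc22a7 and Tpmt passed between the diets, and for Tpmt the extract arrays (8.52 to 8.56) lie between the other groups.

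None of the 26 measured receptor and transcription factor genes that are known to control conjugation genes passed in any of the 3 comparisons. On the high-fat diet Nr1h4, the bile acid receptor gene, stood at 0.34 ± 0.10 (limma adjusted p = 0.172), Nfe2l2, which encodes NRF2, at 0.27 ± 0.10 (limma adjusted p = 0.246) and Nr1i3, which encodes the receptor CAR, at 0.44 ± 0.17 (limma adjusted p = 0.299). Of the 15 measured genes used as readouts of such receptors, Hmox1, the heme oxygenase 1 gene, rose (0.99 ± 0.18, limma adjusted p = 0.0345) and Cyp4a14, a target of PPAR-alpha, fell (-0.98 ± 0.19, limma adjusted p = 0.0411). Of the 11 measured genes of the glutathione fold or membrane-associated family outside the naming rule, none passed, and Gstcd, below background in every array, had the smallest p (0.30 ± 0.10, limma adjusted p = 0.235).

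Conjugation genes are known to be unevenly spread across the liver lobule, and markers of its zones moved between the same groups. Of 12 pericentral markers measured, Rhbg, Gulo and Lect2 rose on the high-fat diet, 10 were higher, and the mean of the 12 ran from 8.88 to 9.18 over the regular-diet arrays and from 9.38 to 9.42 over the high-fat diet arrays. Of 8 periportal markers measured, Hal and Arg1 fell, 5 were lower, and the mean of the 8 ran from 9.59 to 9.75 and from 9.30 to 9.49. With extract those means ran from 9.31 to 9.42 and from 9.37 to 9.60. The part of these markers in the differences of the conjugation genes was not tested.

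Markers of other cells were read in the same way. Among the 8 markers of hepatocytes Cps1 fell and 5 were higher, and among the 8 of stellate cells Col1a1 and Col3a1 rose and 5 were higher. Among the 7 of recruited macrophages Cd9 fell and 5 were higher, and the mean of the 7 ran from 4.43 to 4.61 over the regular-diet arrays and from 4.63 to 4.82 over the high-fat diet arrays. Among the 5 of intestine Fabp2, which liver also expresses, fell and 2 were higher. None of the measured markers of Kupffer cells (8), sinusoidal endothelium (8), bile duct (7), lymphocytes (8), neutrophils (6), adipocytes (5) or pancreas (5) passed between the diets, and no red blood cell marker was measured. All 6 neutrophil markers, 7 of 8 lymphocyte markers and 5 of 7 bile duct markers were below background in every array. The mean of the 11 male-biased liver genes ran from 8.94 to 10.5 over the high-fat diet arrays, a wider range than the 9.27 to 9.85 of the regular diet, and all 11 were above background in at least 1 array. The mean of the 10 measured female-biased genes also ran wider, from 4.67 to 5.97 over the high-fat diet arrays against 4.77 to 4.96 on the regular diet. With extract the male-biased mean ran from 9.76 to 10.1 and the female-biased mean from 5.20 to 5.58. Of the 10 female-biased genes, 5 were below background in every array, and no gene of either list passed. The part of these genes in the results was not tested.

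The second comparison, of GFB with HFD arrays, concerns the extract in mice on the same diet. None of the 52 conjugation genes rose or fell in limma, where 0.00451% of all genes tested rose and 0% fell. At an unadjusted p under 0.05, 4 of the 52 were higher and 1 lower, against 2.58% and 3.40% of all genes. All 3 extract arrays lay above all 3 high-fat diet arrays for 3 of the 52, against 4.42% of all genes, and below them for 2, against 5.27%. The median difference over the 52 was -0.014, beside -0.0015 over all genes.

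For the genes that rose on the diet and lay above background, the 95% intervals of the extract difference, unadjusted, ran from -0.15 to 0.13 for Ugt3a2, from -0.39 to 0.05 for Ugt2b36, from -0.42 to 0.22 for Sult1b1 and from -0.70 to 0.13 for Sult1c2. The interval was narrowest for Ugt3a2 and widest for Sult1c2, and all 4 include 0. These high-fat diet arrays also served the diet comparison, so the signs of the 2 comparisons are not independent.

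The 3 genes with non-overlapping higher values, a share near that of all genes (5.77% against 4.42%), were the sulfotransferase genes Sult1a1, Sult1d1 and Sult2a8. Of the 21 sulfotransferase genes 9 were higher with extract and 12 lower, with a median difference of -0.0079. Sult1a1 stood at 10.52, 10.68 and 10.43 with extract against 9.80, 10.36 and 9.98 (0.49 ± 0.14, limma adjusted p = 0.702). Sult1d1 stood at 9.38, 9.47 and 9.37 against 8.79, 9.25 and 9.27 (0.30 ± 0.12, limma adjusted p = 0.802). Sult2a8 stood at 11.42, 11.49 and 11.33 against 11.26, 11.09 and 11.22 (0.22 ± 0.07, limma adjusted p = 0.728). None passed under any alternative run. In Sult1a1 and Sult1d1, HFD replicate 1 was the lowest array of all 9, and without it the differences were 0.37 and 0.15.

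Sult2a4 had the smallest p of the 52 in this comparison (-0.55 ± 0.10, limma adjusted p = 0.325), at signal below background in every array. Gstm7 was 0.36 ± 0.16 higher with overlapping groups (limma adjusted p = 0.829), and the lowest difference, that of Ugt2b38 (-0.66 ± 0.49, limma adjusted p = 0.873), was also below background. Of the 8 pathway lists none held a gene that passed. The smallest p among them was that of Tpmt (-0.41 ± 0.09, limma adjusted p = 0.477), followed by Cyp3a11, a drug-oxidising gene used as a readout of the receptor PXR (0.75 ± 0.22, limma adjusted p = 0.693), and Slc35d1 (-0.28 ± 0.08, limma adjusted p = 0.702). Cyp3a11 stood at 10.20, 10.28 and 10.16 with extract against 8.95, 9.86 and 9.60, and Cth, which fell on the diet, at 11.01, 10.61 and 10.85 (0.45 ± 0.18, limma adjusted p = 0.802). In both genes the extract arrays lay above all 3 high-fat diet arrays. Of the 9 genes of UDP-glucuronate supply and release, 8 were lower with extract, beside 11203 of all 22180 genes tested. The same high-fat diet arrays served the diet comparison, where 6 of the 9 were higher, so these counts are not independent. Gusb, which cleaves glucuronides, was at -0.24 ± 0.08 (limma adjusted p = 0.718) and Nfe2l2 at -0.29 ± 0.10 (limma adjusted p = 0.726). Of the 7 recruited macrophage markers all were lower with extract and none passed, with array means from 4.29 to 4.44 against 4.63 to 4.82, and 4.43 to 4.61 on the regular diet. Of the 7, 3 were below background in every array and 4 were above it in at least 1 array. The extract means lay below that level, but a mean over genes on both sides of it does not place each gene.

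The extract group was also set against the regular diet. Ugt3a2 alone of the 52 rose (0.42 ± 0.06, limma adjusted p = 0.0298) and none fell, where 0.261% of all genes tested rose and 0.180% fell. At an unadjusted p under 0.05, 15 of the 52 were higher, against 5.79% of all genes, and 5 were lower, against 6.26%. The arrays did not overlap and were higher with extract for 17 of the 52 (32.7%), against 7.00% of all genes, and lower for 3, against 7.62%. The median difference was 0.10, and 0.37 over the 32 genes with a mean above background, beside 8.55e-04 over all genes. This comparison shares its regular-diet arrays with the diet comparison, so the values are given side by side and not as a repeat.

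Sult1b1 stood at 0.82 ± 0.14 (limma adjusted p = 0.0542), Ugt2b1 at 0.45 ± 0.08 (limma adjusted p = 0.0687), Sult2a8 at 0.39 ± 0.07 (limma adjusted p = 0.0736) and Gstt1 at 0.68 ± 0.15 (limma adjusted p = 0.107), and none of them passed. Gstt3 had the largest difference, 1.00 ± 0.33 (limma adjusted p = 0.263), and Gstt2 the lowest, -0.79 ± 0.23 (limma adjusted p = 0.207). Sult1c2, which rose on the high-fat diet alone, stood at 0.79 ± 0.18 (limma adjusted p = 0.133), and Ugt2b36 at 0.36 ± 0.10 (limma adjusted p = 0.186). Of the 10 glycosyltransferase genes 8 were higher, with a median of 0.29, and of the 21 glutathione S-transferase genes 13, with a median of 0.12 that was 0.061 without RD replicate 1. Of the 21 sulfotransferase genes 9 were higher, with a median of -0.04 that was 0.05 without RD replicate 1 and 0.0057 without GFB replicate 2. No pathway gene passed against the regular diet, and of the zone markers only Gulo did. Of the other cell type markers, Cd9 (-0.79 ± 0.10, limma adjusted p = 0.0206), Fabp2 (-0.91 ± 0.09, limma adjusted p = 0.00783) and Lgals4 (-0.78 ± 0.13, limma adjusted p = 0.0448) fell. Without RD replicate 1 the count of 1 became 3 (Gstt2, Ugt3a2 and Sult1b1), without HFD replicate 2 it was 1 (Gstt1), and without any of the other 7 arrays it was 0.

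Across the 3 groups, the moderated F test of limma called Ugt3a2 (adjusted p = 0.0264) and Sult1b1 (adjusted p = 0.0334), 2 of the 52, against 0.780% of all genes. Sult2a4 (adjusted p = 0.0584), Sult1c2 (adjusted p = 0.0613) and Ugt2b1 (adjusted p = 0.0777) came next in limma. The count of 2 was 4 without RD replicate 1 (Gstt2, Ugt3a2, Gstp3 and Sult1b1), 1 without HFD replicate 2 (Ugt2b37) or GFB replicate 3 (Sult2a4), and 0 without any of the other 6 arrays.

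The genes whose profile over the 9 arrays was most like that of Ugt3a2 were Adh4 (Pearson r = 0.993), Proz (0.990), Tapt1 (0.983), Uprt (0.980) and Oas1b (0.980), none of them a conjugation gene. Within the 52, Sult1b1 (0.941) and Ugt2b1 (0.919) came closest. These correlations describe arrays that share the same 3 groups.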

How the data were processed

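Total RNA of 9 liver samples was read on whole-transcript arrays. Per the submitters' processing notes, the authors used oligo, an R package, and RMA, and the deposited unit is log2 expression for each probe set. RMA removes background and quantile-normalizes the arrays, so a shift shared by most genes would be lost. The sources used here give no genome build. Of 41345 probe sets, 23521 had 1 gene symbol in the array's annotation table, and these covered 22180 genes, each represented by its probe set with the highest mean. Of the 23521 symbols, 23328 equalled the RefSeq symbol of the same gene ID (GRCm38.p6, used for names and neighbours) and 193 had no match. Each of the 52 conjugation genes had 1 probe set.

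Group means were estimated from all 9 arrays for all 22180 genes with limma 3.58.1 in R 4.3.3 (6 residual and 3.28 prior degrees of freedom). P-values are two-sided and Benjamini-Hochberg adjusted over all genes, with a threshold of 0.05. An exact permutation test of 3 arrays against 3 could not go below p = 0.1 and was not used. The method was tested on simulated data, where recovery of changed genes was required only for a difference larger than any seen in a conjugation gene. Genes were named where they passed in any comparison, were among the 5 smallest p-values of a comparison, had its largest rise or fall, or had 1 of the 3 highest means of a family. Pathway genes were named where they passed, and some, but not all, of those with the 3 smallest p-values of their list were also named. A few further genes were chosen after their values were seen, for their place beside a named relative or their spread between arrays. The members and lists were chosen with earlier results of these data known. Motifs were searched with Python 3.11.15 in the 250 bases before each start site. The alternatives are given in the closing section.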

Additional observations from a re-analysis of the deposited data

How the results depend on the processing

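For the high-fat against the regular diet, the 5 conjugation genes that rose became 8 called among the brighter genes (7 higher and Gstt2 lower), 9 at an adjusted p under 0.10, 3 with the replicate block and 0 with only the 6 arrays compared, and 0 to 5 with 1 array left out. For extract against the regular diet, the count of 1 became 4 with a variance trend and robust fitting, 5 among the brighter genes, 2 with a second quantile normalization, 2 with array weights, 4 at an adjusted p under 0.10, 0 with the replicate block, 0 with only the 6 arrays, and 0 to 3 with 1 array left out. The F test's 2 became 4 with the variance trend, 6 among the brighter genes, 7 at the looser threshold, 0 with the replicate block, and 0 to 4 with 1 array left out. Extract against the high-fat diet gave 0 calls in all 18 alternatives. The median difference of 0.12 on the high-fat diet was 0.27 among the brighter genes and 0.059 to 0.16 with 1 array left out, and that of extract against the regular diet was 0.37 among the brighter genes. Ugt3a2 with extract against the high-fat diet changed sign around 0 (-0.017 to 0.012 with 1 array left out). The brighter-gene setting adjusts over 11090 genes in place of 22180 and keeps 32 of the 52, and leaving arrays out leaves fewer samples. The cause of the other changes was not tested.

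Whether the replicate numbers pair the arrays cannot be settled with 3 arrays per group, and the main fit uses no pairing. Deviations from the group means correlated over all genes at -0.051 to 0.17 between arrays with the same number. Of these 9 correlations 1 exceeded 0.1, and the same number correlated best in 8 of 18 cases. RMA signals give no detection call. The level of 4.74 is the median of all gene means and serves as a convention, so values below it are treated as not told from background.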

Other observations

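Outside the naming rule stand 9 probe sets of these families that carry several gene symbols. They were fitted with all 41345 probe sets, an alternative chosen after seeing which probe sets the rule left out. None passed in any of the 3 comparisons in limma, with adjusted p from 0.335 upward. The 2 probe sets shared by Ugt1a genes, which include the bilirubin-conjugating form Ugt1a1, differed by 0.10 ± 0.10 and 0.09 ± 0.15 on the high-fat diet and by -0.03 ± 0.10 and 0.03 ± 0.15 with extract. The brighter of them read 8.10, 8.49 and 8.50 on the regular diet, 8.35, 8.58 and 8.43 on the high-fat diet and 8.30, 8.43 and 8.72 with extract, so its groups overlapped throughout. The probe set shared by Gstz1, the maleylacetoacetate isomerase gene, and Pomt2 read 11.36, 11.31 and 11.39, then 11.46, 11.60 and 11.64, without overlap (0.21 ± 0.07, limma adjusted p = 0.335). The probe set shared by Gstp1 and Gstp2 stood at -0.37 ± 0.17 (limma adjusted p = 0.492), the same sign as both genes had alone. Of the 3 probe sets shared by Gsta1 and Gsta2, those above background stood at 0.46 ± 0.22 and 0.62 ± 0.37, with HFD replicate 2 highest at 6.95 and 7.94. The probe set shared by Gstm5 and 4933431E20Rik stood at -0.39 ± 0.12 with extract against the high-fat diet (limma adjusted p = 0.912), and the one shared by Ugt2a1 and Ugt2a2 was below background in every array.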
